A study of Rattus norvegicus with 6 samples.

Results

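The nuclear genes for the proteins of the mitochondrial ribosome were examined in rat PC12 cells with and without forced expression of PCBP1. Members were the protein-coding rows of the deposited gene count table whose symbol begins with Mrpl or Mrps followed by a number, which gave 74 of 20609 rows. Of these, 45 carry an Mrpl symbol, for the large subunit, and 29 an Mrps symbol, for the small subunit. The 74 rows hold 73 symbols, because Mrpl53 is listed under 2 gene identifiers. In the edgeR comparison 72 of the 74 had enough counts to be tested. The other two were Mrpl1, with 7, 14 and 8 counts in the control libraries and 12, 4 and 9 in the PCBP1 libraries, and the second Mrpl53 row, ENSRNOG00000053109, with 1 count in each of 2 PCBP1 libraries and none elsewhere.

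Mitochondria keep a ribosome of their own, which makes the few proteins that mitochondrial DNA encodes, all of them parts of the respiratory chain or ATP synthase. Its RNAs come from mitochondrial DNA, whereas all its proteins are encoded in the nucleus, made in the cytosol and imported. Some of these proteins descend from bacterial ribosomal proteins and others were added during the evolution of mitochondria, and many of the genes have promoters with sites for the factors NRF1, the ETS family member GABP (NRF-2) and YY1. PCBP1 is a protein that binds poly(C) stretches in RNA and DNA and acts in splicing, mRNA stability and translation.

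PC12 is a line derived from a rat adrenal chromaffin tumour (pheochromocytoma). The control group was 3 poly(A) RNA-seq libraries from PC12 cells given a control plasmid, and the PCBP1-OE group was 3 libraries from PC12 cells given a plasmid for PCBP1, which the methods describe as tagged with EGFP. No other treatment or genotype is given, and the labels do not say whether replicates were separate cultures, so that the p-values measure the spread between these libraries, which may be technical. The libraries held 19730209 to 22315623 counts. No row of the table matched Pcbp1, and the level of the transfected gene was not analysed here. The defining chromaffin markers were nearly absent. Dbh, Ddc, Chga, Chgb and Slc18a2 had group means of at most 0.160 CPM (counts scaled to an equal library size), and Th had 7.95 CPM in control and 7.73 CPM in PCBP1-OE. The glial markers Sox10 and S100b had means of 400 and 233 CPM in control. The label PC12 is kept below only as the name the submitters gave.

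The members had slightly lower counts in PCBP1-OE, in a shift that was wide across genes and small in each. Of 72 tested members, 63 (87.5%) had a log2 fold change below 0, against 49.5% of all 12624 tested genes. The median was −0.080, a difference of −5.37%, against 0.003 for all tested genes, and the members ranged from −0.27 (Mrpl55) to 0.14 (Mrps10). None differed by 2-fold. Because RNA from whole cultures was measured, fewer cells with high levels and less RNA in each cell cannot be told apart.

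Only 5 members passed the test, all lower in PCBP1-OE (a false discovery rate, FDR, of 0.05 or less in edgeR's quasi-likelihood test). That is 6.94% of the 72, near the 5.0% of all tested genes that were called lower. None was called higher by edgeR, DESeq2 or limma-voom, against 4.45% of all genes by edgeR. Below the threshold the shares were further apart. At an unadjusted p below 0.05, 24 members (33.3%) were lower, against 14.8% of all genes, and 0 were higher, against 13.6%. The 3 PCBP1-OE values lay below all 3 control values in 12 members (16.7%), about the background of 16.5%, and above them in 0, against 14.1%.

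**Figure D1:**
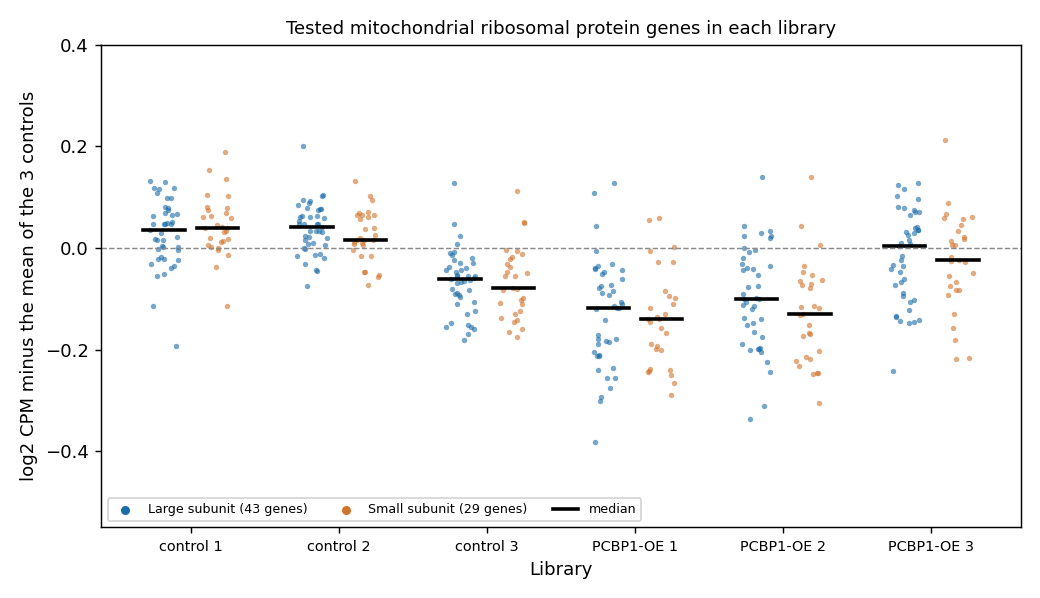
Each point is 1 tested member in 1 library, as log2 CPM minus the mean of the 3 controls (vertical axis), in the 6 libraries (horizontal axis), with 43 large-subunit genes in blue, 29 small-subunit genes in orange and bars at the medians. The medians of PCBP1-OE 1 and 2 lie lowest, and those of control 3 lie below those of PCBP1-OE 3.

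The values by library show where the groups met. Summed over all 74 members, the level was 4780, 4748 and 4440 CPM in controls 1 to 3 and 4234, 4322 and 4580 CPM in PCBP1-OE 1 to 3. The means were 4656 ± 188 and 4378 ± 180 CPM (SD, n = 3 each), a difference of −5.97%. The log2 ratio of the group means was −0.089 with this scaling and −0.047 with CPM by total count. Another measure, the median of log2 CPM over tested members in each library, differed by −0.145 between the group means. In the sum the groups overlapped, since PCBP1-OE 3 lay above control 3. Controls 1 and 2 lay above all 3 PCBP1-OE libraries, and PCBP1-OE 1 and 2 lay below all 3 controls. The median member, set against its control mean on the log2 scale, stood at 0.039, 0.033 and −0.062 in the controls and at −0.133, −0.114 and −0.017 in PCBP1-OE. Counting each tested member in the library where it was lowest gave 2, 3 and 7 members for controls 1 to 3 and 40, 17 and 3 for PCBP1-OE 1 to 3. The same pair of libraries, control 3 and PCBP1-OE 3, thus lay closest to the opposite group in the sum, in the median and in these tallies. Control 3 was the deepest library, at 22315623 counts, and PCBP1-OE 3 the shallowest, at 19730209, and the part of depth in these values was not tested. Members took 0.462, 0.466 and 0.446% of all counts in the controls and 0.437, 0.440 and 0.455% in PCBP1-OE.

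The calls rested on few libraries, among the members and over the whole table alike. Without control 3, 24 members were called lower (32.9%, against 11.4% of all tested genes). No member was called without control 1, control 2, PCBP1-OE 1 or PCBP1-OE 2, where the share over all genes was 0.615%, 0.0936%, 0.524% and 0.374%. Without PCBP1-OE 3, 5 were called (6.85%, against 2.79%). Over these 6 fits the median log2 fold change of the members lay between −0.132 and −0.063, below the median of all genes each time. Scaling moved the count too, to 1 member (1.39%, against 3.38% of all genes) with upper-quartile scaling, under which the median of all genes was 0.023 and that of the members −0.060. Without a filter on low counts it was 14 (18.9%, against 4.91%).

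**Figure D2:**
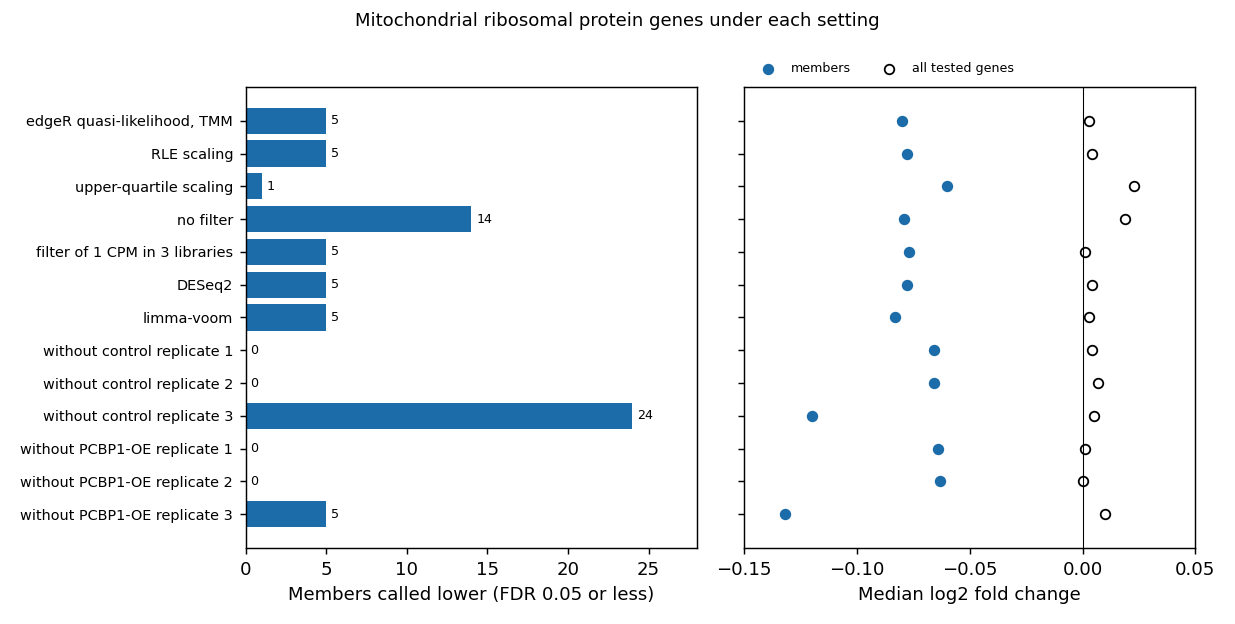
Left, the number of members called lower at an FDR of 0.05 or less (horizontal axis) under the analysis settings shown (rows). Right, the median log2 fold change of the tested members (filled) and of all tested genes (open). The replicate block, which called 0 members, is not shown. The count ran from 0 to 24, whereas the filled points lie left of the open ones in every row shown.

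Of the 5 called members, 4 belong to the large subunit (9.30% of its 43 tested members) and 1 to the small (3.45% of 29). Over all tested genes 5.0% were called lower. Mrpl48 encodes a protein of the central protuberance, the knob that faces the small subunit, and has no bacterial counterpart. Its level was 76.9, 78.9 and 75.5 CPM in the controls and 66.8, 67.1 and 69.8 CPM in PCBP1-OE. All PCBP1-OE values were below all control values, and it fell by 0.18 ± 0.05 on the log2 scale (fold change ± SE, edgeR FDR 0.0307). Mrpl4 encodes a protein that lines the tunnel through which the new chain leaves. It was counted at 71.9, 69.9 and 66.8 CPM in the controls and at 58.1, 64.2 and 58.7 CPM in PCBP1-OE. These groups did not overlap either, and it fell by 0.20 ± 0.05 (edgeR FDR 0.0369).

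Mrpl20 encodes the counterpart of a bacterial protein that binds early in the assembly of the large subunit. It had 67.8, 70.6 and 64.8 CPM in the controls and 58.4, 59.0 and 61.7 CPM in PCBP1-OE, without overlap, and fell by 0.18 ± 0.05 (edgeR FDR 0.0428). Mrpl55, another protein of the large subunit, showed the most negative fold change of all members. Its 46.2, 47.0 and 40.9 CPM in the controls stood against 36.1, 35.2 and 40.2 CPM in PCBP1-OE. It fell by 0.27 ± 0.07 (edgeR FDR 0.0395), and PCBP1-OE 3 came within 1 CPM of control 3. The called member of the small subunit was Mrps15, whose bacterial counterpart binds the ribosomal RNA at an early step of assembly. The controls had 94.8, 91.3 and 83.5 CPM and the PCBP1-OE libraries 75.7, 76.3 and 81.9 CPM, and it fell by 0.20 ± 0.06 (edgeR FDR 0.0395). Here too the groups were separate, with control 3 and PCBP1-OE 3 nearest each other.

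None of the 5 kept its call without control 1, control 2, PCBP1-OE 1 or PCBP1-OE 2 (edgeR FDR between 0.0567 and 0.178). Mrpl4 and Mrpl20 also lost it without PCBP1-OE 3, at an FDR of 0.0923 and 0.0573. With upper-quartile scaling the FDR of the 5 lay between 0.0443 (Mrpl48) and 0.0601 (Mrpl20). Limma-voom called 5 members and DESeq2 also 5, with Mrpl23 (adjusted p 0.0299) in place of Mrpl20 (adjusted p 0.0538).

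**Figure D3:**
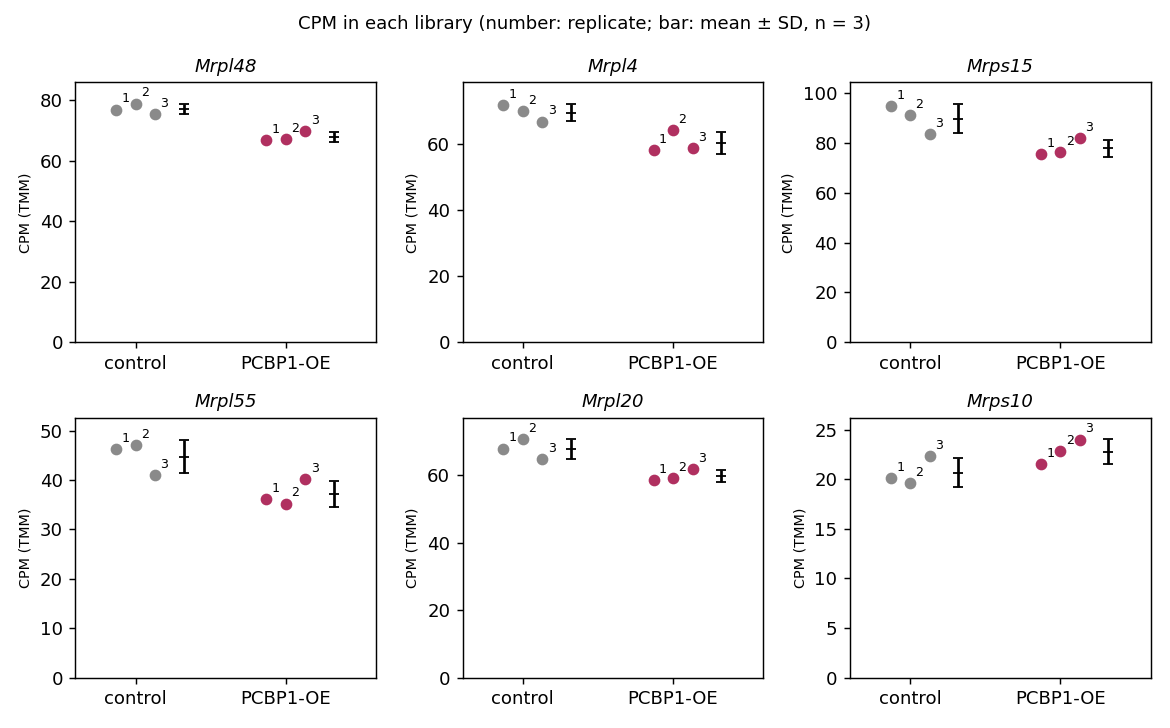
CPM (vertical axis, from 0) in each of the 3 control (grey) and 3 PCBP1-OE (red) libraries for the 5 called members and for Mrps10, the member with the largest fold change above 0; the numbers are replicates and the bars mean ± SD. In the 5 called genes all red points lie below all grey ones, and in Mrps10 they overlap.

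The promoter windows of the called genes are shown because the factors known for this gene class bind near the start of transcription. RefSeq (assembly GRCr8) had an entry for 58 of the 73 member symbols, with 60 windows in all since Mrpl14 and Mrps21 had 2 each, and each window runs from 250 bases before to 50 after the start. Capitals mark the ETS core CCGGAAG on either strand, which reads CTTCCGG on the other. The Mrpl48 window is chr1:164351327-164351626 on the minus strand, and those on the plus strand are chr8:27815521-27815820 for Mrpl4, chr5:171690948-171691247 for Mrpl20, chr5:143605891-143606190 for Mrps15 and chr10:44488003-44488302 for Mrpl55.
Mrpl48: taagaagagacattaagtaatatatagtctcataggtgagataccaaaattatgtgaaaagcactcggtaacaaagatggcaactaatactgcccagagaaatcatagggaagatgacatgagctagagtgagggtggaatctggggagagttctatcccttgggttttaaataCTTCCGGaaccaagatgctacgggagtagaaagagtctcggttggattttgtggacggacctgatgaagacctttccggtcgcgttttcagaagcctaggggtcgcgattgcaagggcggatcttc
Mrpl4: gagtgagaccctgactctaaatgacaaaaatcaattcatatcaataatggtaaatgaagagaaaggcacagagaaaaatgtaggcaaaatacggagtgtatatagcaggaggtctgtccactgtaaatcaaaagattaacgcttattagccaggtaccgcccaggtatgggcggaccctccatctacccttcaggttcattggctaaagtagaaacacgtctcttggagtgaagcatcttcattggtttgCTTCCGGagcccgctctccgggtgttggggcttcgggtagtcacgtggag
Mrpl20: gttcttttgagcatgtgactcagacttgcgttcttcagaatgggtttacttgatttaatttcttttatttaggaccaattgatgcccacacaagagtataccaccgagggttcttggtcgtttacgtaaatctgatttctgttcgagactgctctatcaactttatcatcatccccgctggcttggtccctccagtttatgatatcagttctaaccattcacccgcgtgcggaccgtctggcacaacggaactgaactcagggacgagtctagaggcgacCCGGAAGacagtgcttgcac
Mrps15: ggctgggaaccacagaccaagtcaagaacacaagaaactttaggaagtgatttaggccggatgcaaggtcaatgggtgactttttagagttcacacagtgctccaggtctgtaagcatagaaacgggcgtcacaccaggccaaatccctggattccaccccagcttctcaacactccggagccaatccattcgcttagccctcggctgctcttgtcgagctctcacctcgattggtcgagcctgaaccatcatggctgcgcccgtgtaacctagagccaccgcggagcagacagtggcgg
Mrpl55: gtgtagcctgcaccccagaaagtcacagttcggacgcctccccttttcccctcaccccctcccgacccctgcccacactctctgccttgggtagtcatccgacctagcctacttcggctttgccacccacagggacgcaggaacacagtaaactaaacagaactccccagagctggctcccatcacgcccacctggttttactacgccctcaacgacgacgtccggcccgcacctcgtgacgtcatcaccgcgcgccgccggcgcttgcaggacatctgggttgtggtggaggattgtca
The ETS core was found in 3 of these 5 windows, those of Mrpl48, Mrpl4 and Mrpl20, and Mrps15 and Mrpl55 held none. Over all 60 member windows 19 (31.7%) held it, against 8.75% of all 33469 windows in the table, which include those of genes not counted here. The NRF1 half-site GCATGCGC was in 5 member windows (8.33%, against 2.47%) and the YY1 core AAGATGGCG in 9 (15%, against 1.73%), and neither was in any of the 5 called windows. At least 1 of the 3 was in 28 member windows (46.7%, against 12%), with 51.4% of 37 large-subunit and 39.1% of 23 small-subunit windows. The GC box GGGCGG was in 48.3% of member windows, against 33.1%, and CCAAT in 43.3%, against 37.5%. Both strands were searched for exact letters only, and the median GC content was 55.7% in member windows and 51.7% in all. These are matches of letters and not measured binding.

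The large and small subunits were then set side by side. In the large subunit 37 of 43 tested members (86.0%) had a fold change below 0, with a median of −0.066. Of these 43, 14 (32.6%) were lower at an unadjusted p below 0.05. In the small subunit 26 of 29 (89.7%) were below 0, with a median of −0.112, and 10 (34.5%) were lower at such a p. Neither subunit had a member that was higher at such a p. Over all tested genes 14.8% were lower and 13.6% higher. The medians differed by 0.046, a description for which no test was made, and without control 1 by 0.006. The large-subunit members summed to 2849, 2850 and 2656 CPM in the controls and to 2531, 2606 and 2744 CPM in PCBP1-OE. Those of the small subunit summed to 1931, 1898 and 1784 CPM and to 1703, 1715 and 1836 CPM. The ratio of the sums, large to small, was 1.48, 1.50 and 1.49 in the controls and 1.49, 1.52 and 1.49 in PCBP1-OE, so the balance between subunits overlapped between groups while both sums moved together by library.

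**Figure D4:**
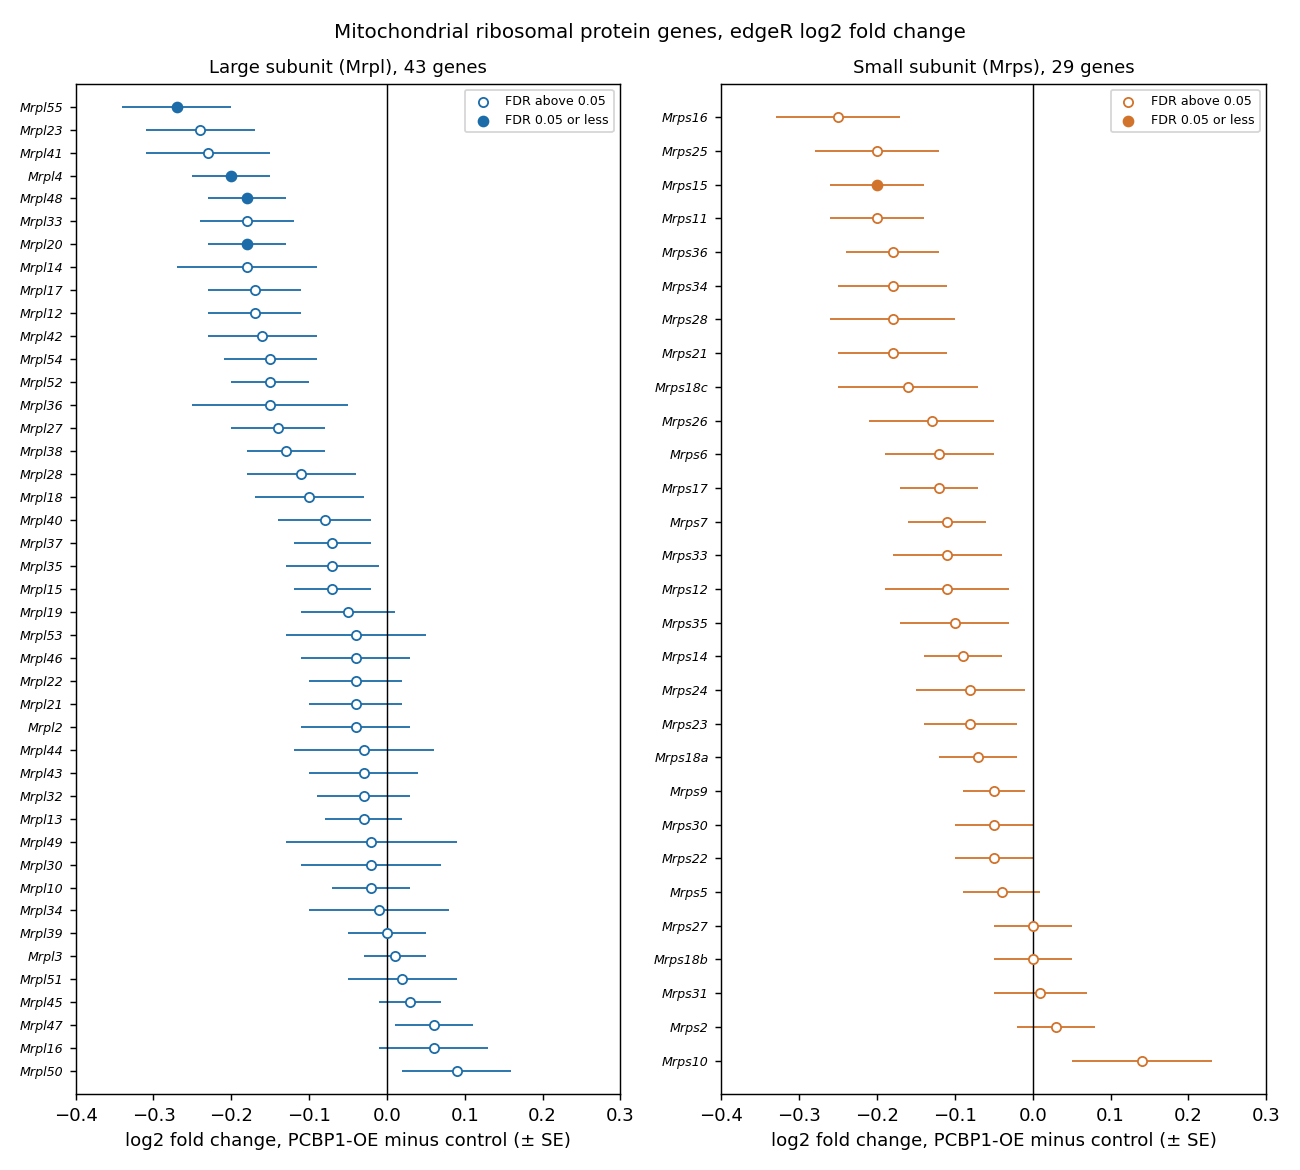
Log2 fold change of PCBP1-OE over control (horizontal axis, ± SE) for each tested member of the large (left, 43) and small (right, 29) subunit, with members at an FDR of 0.05 or less filled. Estimates lie below 0 in 37 large-subunit and 26 small-subunit members. Filled are 4 (9.30%) and 1 (3.45%), against 5.0% of all tested genes called lower.

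Descent gave a similar picture. Among the 42 tested members with a bacterial counterpart the median was −0.103, with 4 called lower (9.52%) and 15 at an unadjusted p below 0.05 (35.7%). Among the 29 without one it was −0.066, with 1 called lower (3.45%), Mrpl48, and 8 at such a p (27.6%). Over all tested genes these shares were 5.0% and 14.8%. Mrps18a and Mrps18b were counted as without a counterpart, though Mrps18c, of the same family, was counted as having one. Mrps36 was placed in neither class.

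Several members just missed the threshold. Mrpl23, a protein at the tunnel exit, was at 89.0, 83.8 and 74.0 CPM in the controls and at 62.8, 71.4 and 74.6 CPM in PCBP1-OE, and the estimate was −0.24 ± 0.07 (edgeR FDR 0.0556). PCBP1-OE 3 exceeded control 3, so the groups overlapped, and DESeq2 called this gene lower (adjusted p 0.0299). Mrps16, a small-subunit protein mutated in a human mitochondrial disease, was at 40.5, 39.3 and 33.5 CPM against 30.7, 31.7 and 33.1 CPM, at −0.25 ± 0.08 (edgeR FDR 0.0606). Its groups were separate by less than 1 CPM. Mrpl41 of the large subunit was at 45.4, 42.1 and 37.1 CPM against 34.6, 33.3 and 38.0 CPM, at −0.23 ± 0.08 (edgeR FDR 0.0762), with overlap. The remaining members without overlap, besides the 5 called and Mrps16, were Mrps11, Mrpl52, Mrpl33, Mrpl38, Mrps28 and Mrps9, with fold changes of −0.20 to −0.05 and edgeR FDR from 0.0678 (Mrps11) to 0.491 (Mrps9).

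The 9 members with estimates above 0 were all small and uncalled. Mrps10, a small-subunit protein, had 20.1, 19.6 and 22.3 CPM in the controls and 21.5, 22.8 and 24.0 CPM in PCBP1-OE. The estimate was 0.14 on the log2 scale, with a 95% confidence interval of −0.05 to 0.32 (edgeR FDR 0.320). Next came Mrpl50 at 0.09 (edgeR FDR 0.435), Mrpl47 at 0.06, Mrpl16 at 0.06 and Mrps2 at 0.03. Under every scaling, filter, tool, block and omitted library tried, 48 tested members kept an estimate below 0 and 6 kept one above 0.

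Members with known special roles spread over the range. Mrpl45, which holds the ribosome to the inner membrane, had the highest CPM of all members, a measure that also depends on transcript length, with 222, 219 and 218 CPM in the controls and 214, 224 and 232 CPM in PCBP1-OE. The estimate was 0.03 on the log2 scale, with a 95% confidence interval of −0.07 to 0.12. Mrpl12 and Mrpl10 form the stalk that recruits translation factors. Mrpl12 had 163, 149 and 136 CPM against 126, 134 and 139 CPM, which gave an estimate of −0.17 (edgeR FDR 0.0959), and Mrpl10 was at −0.02 (edgeR FDR 0.806). The 95% confidence intervals of the stalk genes, −0.30 to −0.03 for Mrpl12 and −0.13 to 0.09 for Mrpl10, overlapped. The difference between these genes was not tested, and neither was called. Mrps7, next in CPM, had 149, 148 and 136 CPM against 131, 132 and 138 CPM (edgeR FDR 0.137), and Mrpl49, the tested member with the fewest, had 255, 292 and 347 counts in the controls and 341, 277 and 249 counts in PCBP1-OE (edgeR FDR 0.930). Both overlapped between groups.

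Mrps12, the counterpart of a bacterial protein at the decoding centre, was at −0.11 (edgeR FDR 0.357). Vertebrates carry 3 genes of the Mrps18 family, whose products occupy different places, that of Mrps18a being in the large subunit despite its name. Their log2 fold changes were −0.07 for Mrps18a, −0.00 for Mrps18b (95% confidence interval −0.12 to 0.12) and −0.16 for Mrps18c, with edgeR FDR of 0.345, 0.999 and 0.258. Mrps30, whose product also sits in the large subunit, was at −0.05 (edgeR FDR 0.501). Mrps36 encodes a protein now known as a subunit of the 2-oxoglutarate dehydrogenase complex, and was at −0.18 (edgeR FDR 0.0832). A second Mrps36 row, a pseudogene copy, had 9.70 to 12.3 CPM, and the split of reads between the copies is uncertain. Moving Mrps18a and Mrps30 to the large subunit gave a difference between the subunit medians of 0.047.

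Proteins of the same ribosome that the rule on symbols leaves out were read as well. Ict1 (Mrpl58), which frees chains from stalled ribosomes, had 81.0, 77.2 and 75.5 CPM in the controls and 62.3, 71.4 and 65.8 CPM in PCBP1-OE. The groups did not overlap, and it fell by 0.23 ± 0.06 (edgeR FDR 0.0289). The small-subunit genes Dap3 (−0.04), Ptcd3 (0.04) and Chchd1 (−0.16, edgeR FDR 0.108) and the large-subunit genes Gadd45gip1 (−0.11) and Mrp63 (−0.09) were not called. Of 6 such genes 1 was called lower (16.7%, against 5.0% of all tested genes) and 5 had estimates below 0 (83.3%, against 49.5%).

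The 3 symbols written in lower case in the table also fell outside the rule. The gene mrpl9 was at 40.4, 43.1 and 42.5 CPM in the controls and at 47.1, 48.5 and 46.3 CPM in PCBP1-OE. All PCBP1-OE values were above all control values, unlike in any member by the rule, at a log2 fold change of 0.17 ± 0.06 that missed the threshold (edgeR FDR 0.0670). The gene mrpl11, for a protein at the site where translation factors act, was at −0.06 and mrpl24 at 0.05. With these genes added the median was −0.077 and the count of called members stayed at 5. A row named LOC100359687, annotated as like Mrpl1, had 8.06, 8.62 and 8.34 CPM against 5.81, 5.45 and 7.91 CPM, a log2 fold change of −0.39 (edgeR FDR 0.111).

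Genes that work with the mitochondrial ribosome were compared by list. DESeq2 and limma-voom, like edgeR, called 0 genes in each of the lists of this paragraph and the next. None of 19 tested translation factors was called by edgeR, and at an unadjusted p below 0.05 Mtrf1, a release factor family member, was higher at 0.26 (edgeR FDR 0.0719). The elongation factor genes Tufm and Gfm1 were both at −0.02. The median of the list was 0.003. None of 28 assembly factors was called, with a median of 0.011, 4 higher and 0 lower at that p. None of 20 mitochondrial tRNA synthetases was called, with a median of 0.003, 2 higher and 1 lower at that p. Hars2 came nearest at 0.19 (edgeR FDR 0.0517). Over all tested genes 13.6% were higher and 14.8% lower at that p. The shares of genes below 0 in these lists were 47.4%, 42.9% and 45.0%, close to the 49.5% of all tested genes and unlike the 87.5% of the members, a difference that was not tested.

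Regulators of genes for mitochondrial proteins were not called either. Of 11 tested, 10 were above 0, with a median of 0.073, and 3 were higher at an unadjusted p below 0.05. Over all tested genes 49.5% were below 0, and 13.6% were higher at that p. Gabpa, the DNA-binding subunit of GABP, was at 0.20 (edgeR FDR 0.0678), Yy1 at 0.23 (edgeR FDR 0.173) and Nrf1 at −0.08 (edgeR FDR 0.446). Tfam, which packs mitochondrial DNA and helps start its transcription, was at 0.10 (edgeR FDR 0.193).

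**Figure D5:**
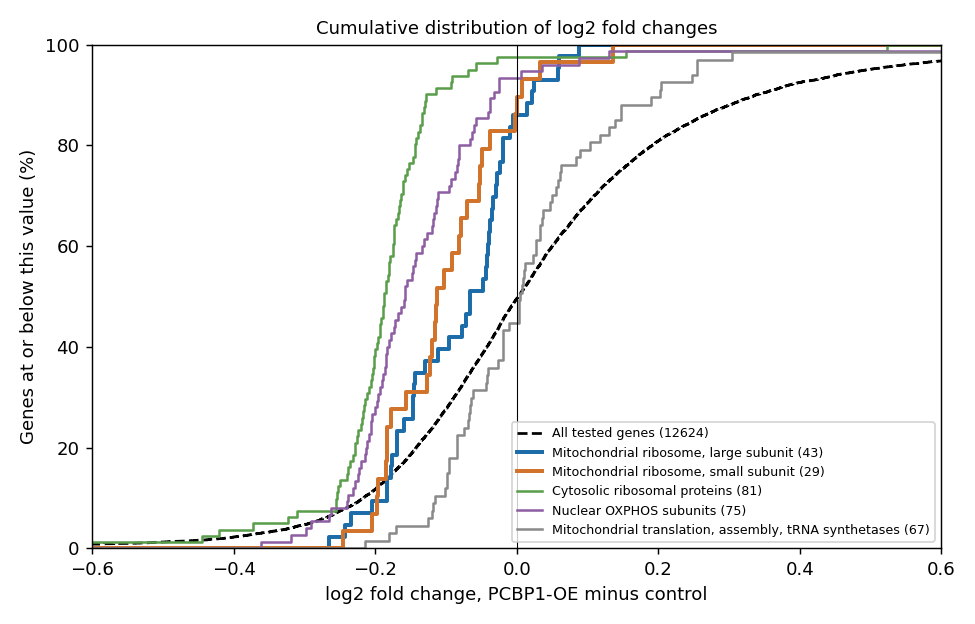
Share of genes at or below each log2 fold change (vertical axis, %; horizontal axis, PCBP1-OE minus control) for the large and small subunit, 81 cytosolic ribosomal protein genes, 75 nuclear OXPHOS genes, the 67 genes of the factor, assembly and tRNA synthetase lists, and all 12624 tested genes. The medians of the large (−0.066) and small (−0.112) subunit lie between those of the cytosolic ribosomal proteins (−0.188) and of all genes (0.003). Away from the middle, the curves of the subunits and of all genes cross.

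Genes for the cytosolic ribosome and for nuclear-encoded respiratory chain subunits varied by library in a like way. Of 81 tested genes for cytosolic ribosomal proteins 24 were called lower (29.6%, against 6.94% of the members and 5.0% of all genes) and none higher, with a median of −0.188 and 97.5% below 0. Of 75 nuclear genes for subunits of oxidative phosphorylation (OXPHOS) 24 were called lower (32%) and none higher, with a median of −0.158. These calls are by edgeR. DESeq2 called 48 of the cytosolic and 24 of the OXPHOS genes lower, against 5.96% of all genes. Limma-voom called 30 and 22 lower, against 4.94% of all genes. For the median gene of each list the 6 libraries, controls 1 to 3 and then PCBP1-OE 1 to 3, stood at 0.074, 0.038, −0.114, −0.236, −0.215 and −0.103 for the cytosolic ribosomal proteins. They stood at 0.046, 0.046, −0.107, −0.193, −0.175 and −0.089 for OXPHOS. In these lists as in the members, control 3 was the lowest control and PCBP1-OE 3 the highest of its group. All 3 lists share the same 6 libraries, so the likeness adds no independent evidence.

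Of the 13 protein genes of mitochondrial DNA, which this ribosome translates, none was called by edgeR. At an unadjusted p below 0.05, 8 were lower (61.5%, against 14.8% of all genes). The median of the 13 was −0.140. Their median gene stood at 0.064, 0.013 and −0.057 in controls 1 to 3 and at −0.193, −0.119 and −0.055 in PCBP1-OE 1 to 3. DESeq2 called 4 of the 13 lower and limma-voom 1, where the 2 tools called 5.96% and 4.94% of all genes lower. The mitochondrial ribosomal RNAs summed to 3896, 2317 and 1796 CPM in the controls and to 2520, 3708 and 4829 CPM in PCBP1-OE, in libraries selected for poly(A). The mean was higher in PCBP1-OE, a log2 ratio of 0.465, but the groups overlapped and their spread was wide, and neither RNA was called by edgeR, DESeq2 or limma-voom or had an unadjusted p below 0.05.

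Other cell type markers were read beside the members. Of the 4 listed glial markers, Sox10 had 389, 408 and 402 CPM in the controls and 362, 375 and 366 CPM in PCBP1-OE, without overlap, and S100b had 218, 243 and 238 CPM against 212, 219 and 212 CPM, with overlap. Neither was called by edgeR, DESeq2 or limma-voom, and both were lower at an unadjusted p below 0.05. Of the 3 glial markers that could be tested, 2 had estimates below 0 and 1 above. The chromaffin markers summed to 8.52 to 10 CPM in the controls and 8.67 to 10 CPM in PCBP1-OE, and 2 of them could be tested. Th was at −0.04, with overlap, and Slc18a1 at 0.47 from 0.918, 0.814 and 0.758 CPM against 1.27, 1.09 and 1.07 CPM, without overlap (edgeR FDR 0.863 and 0.296). The leukocyte markers summed to 6.53 to 7.52 CPM and 5.87 to 6.04 CPM. Their part in the values of the members was not tested.

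The spread between replicates was about as large as the difference between the groups. The coefficient of variation of a member's CPM had a median of 5.46% in the controls, from 0.478% to 13.9% (Mrpl44). In PCBP1-OE it had a median of 5.20%, from 1.46% to 14.1% (Mrps18c). The median difference of the tested members between the groups was −5.37%. Across the 72 tested members the log2 fold change had a Pearson r of −0.13 and a Spearman rho of −0.12 with the log2 level in controls, points that share the same libraries.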

How the data were processed

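Poly(A) RNA-seq libraries from 3 control and 3 PCBP1-OE samples of PC12 cells were grouped by their labels. The values the authors deposited are unnormalized read counts for each gene. The methods state cleaning by FASTX-Toolkit, alignment to Rnor_6.0 by TopHat2 and counting of uniquely mapped reads, so reads shared with near-identical copies are lost. The submitters' processing notes list GRCh38, a human build, while the gene identifiers are those of rat. For the counting tool, strand setting and annotation release: not given in the sources used here.

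Counts were tested in edgeR 4.0.16 (R 4.3.3) by the quasi-likelihood method with TMM scaling, after filterByExpr at a count of 10 and a total of 15, fitted on all genes, with Benjamini-Hochberg adjustment over the 12624 tested; an FDR of 0.05 or less was a call. CPM values use the TMM library sizes, and SE is the fold change divided by the root of F. Also tried were upper-quartile and RLE scaling, no filter, at least 1 CPM in 3 libraries, DESeq2 1.42.0, voom in limma 3.58.1, the replicate number as a block, leaving out each library, subunits by structure and, added after the data were seen, the 3 lower-case symbols. The procedure was tested on simulated data. Members and lists were chosen with earlier results of these data known. Named genes were the called members, the 5 largest and 5 smallest fold changes, the 3 highest and 3 lowest levels in controls, called genes of the related lists of ribosome, translation and assembly proteins, and members with known roles; other genes were chosen after their values were seen. Library depth of 19730209 to 22315623 counts limits the precision of low genes. Some marker genes are not reported here.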

Additional observations from a re-analysis of the deposited data

How the results depend on the processing

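The median log2 fold change of the members lay below that of all genes under every scaling, filter, tool and omitted library tried, and no member was called higher in any, while the count of members called lower, 5, did not hold. With upper-quartile scaling 1 member was called (1 of the large subunit, 0 of the small), 1.39% against 3.38% of all genes, and without a filter 14 (8 and 6), 18.9% against 4.91%, where the main comparison had 4 and 1. Leaving out 1 library at a time gave 0 to 24 members called lower (large subunit 0 to 15, small subunit 0 to 9), with 0.0936% to 11.4% of all genes called lower, a median of −0.132 to −0.063, a difference of subunit medians (0.046 with all libraries) of 0.006 to 0.057 and a log2 ratio of summed CPM (−0.089 with all libraries) of −0.122 to −0.065. That ratio was −0.047 with CPM by total count. The median of log2 CPM over tested members in each library, another measure, differed by −0.145 between the group means. The cause was not tested. Same-numbered libraries correlated at −0.09, −0.07 and −0.08 in their deviations from the group means, so no pairing by replicate number was seen. With 3 libraries in a group, whose deviations sum to 0, such values cannot exclude pairing. The replicate block called 0 members (0 large, 0 small), with 2 genes lower and 14 higher over all. Of the called members, Mrpl48 kept its call in 8 of 13 alternatives, Mrpl55 and Mrps15 in 7, Mrpl4 in 6 and Mrpl20 in 5. Depth left Mrpl1 and the second Mrpl53 row untested.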
